A study of Mus musculus with 2 samples.

Results

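The DNA replication genes described here are 39 genes, chosen by symbol from the 31053 genes of the count tables. They are 9 genes of origin licensing, 3 of nucleotide supply, 12 of the replication fork, 5 of repair, 9 of chromatin and histone supply, and E2f8, a repressor of the E2F family. All 39 symbols were found, and all 39 genes passed the minimum of 100 UMIs over both libraries in all kept cells. They were read per library, within called phases of the cell cycle, and per cell called as cycling. The level in a cell could so be given apart from the share of cells called as cycling.

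The cells were acute myeloid leukemia cells of the mouse, sorted from the spleen as GFP+ Lin- c-Kit+ cells. They expressed AE9a, a short form of the AML1-ETO fusion, and in both groups they carried floxed Usp18 and UBCER-Cre, a recombinase under a promoter active in all tissues that needs tamoxifen to act. Mice that had become sick were given either oil or tamoxifen, and cells were taken 3 days after the first dose. Each group is 1 library made of cells pooled from 3 mice, and 8000 cells were the target for each. The labels are at odds on the genotype after tamoxifen, with Usp18delta/delta in some fields and a heterozygous loss in others, against Usp18f/f or Usp18+/f with oil. The treatment label of both libraries names Usp18f/f cells. Tamoxifen went only into the group in which the deletion was intended, so the drug and the deletion cannot be told apart. Age was not analysed here.

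Before a cell divides, MCM helicases are loaded on origins in G1 with the help of Cdc6, which licenses each origin to fire once. In S phase the helicase is switched on, DNA polymerases copy both strands around the sliding clamp PCNA, and ribonucleotide reductase and thymidylate synthase supply the building blocks. Most of these genes are switched on together at the border of G1 and S by E2F transcription factors, which makes their transcripts a usual readout of cycling cells in leukemia.

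E2F factors bind short sites near the start of their target genes, and 4 such promoters are shown. They are those whose stretch with octamers lay outside every gene of GENCODE M21. At equal phase make-up the log2 ratio was -0.24 for Mcm5, -0.21 for Mcm6, -0.10 for Pola1 and -0.02 for Casp8ap2. The letters come from RefSeq (GRCm38.p6), 5′ to 3′ on the strand of the gene, and capitals mark E2F octamers, read on either strand. The stretch of Mcm5 is chr8:75109331-75109392 on the plus strand, that of Mcm6 is chr1:128359720-128359840 on the minus strand, that of Pola1 is chrX:93632261-93632318 on the minus strand and that of Casp8ap2 is chr4:32615269-32615326 on the plus strand.
Mcm5: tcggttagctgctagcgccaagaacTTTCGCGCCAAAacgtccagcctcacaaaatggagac
Mcm6: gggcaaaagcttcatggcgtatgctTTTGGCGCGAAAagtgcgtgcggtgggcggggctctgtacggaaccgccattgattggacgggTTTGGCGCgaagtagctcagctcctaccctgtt
Pola1: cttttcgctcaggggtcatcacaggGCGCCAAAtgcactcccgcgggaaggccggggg
Casp8ap2: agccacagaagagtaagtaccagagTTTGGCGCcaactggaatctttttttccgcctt

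The octamers searched were TTTCCCGC, TTTGGCGC, TTTCGCGC and TTTGCCGC on either strand, from 250 bases before to 50 bases after the start of each gene, and neighbouring octamers on opposite strands can share bases. The table holds 31 of the 39 genes, and 13 of them, or 41.9%, had at least 1 octamer, against 2.6% of 27025 genes in the table and 5.1% of 8120 genes in it that were measured here. CCAAT on either strand was present in 22 of 31, or 71%, against 41.1% of all genes. TTTGAA on either strand was present in 6 of 31, or 19.4%, against 20.2%. Not in the table were Mcm4, Gmnn, Gins2, Rfc2, Tipin, Dscc1, Exo1 and Atad2. An octamer went with no clear difference between the libraries. The median log2 ratio at equal phase make-up, explained below, was -0.19 in the 13 genes with an octamer (-0.37 to 0.03) and -0.22 in the 18 without (-0.36 to 0.04).

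The libraries held 70239576 and 65028672 UMIs, and 6838 and 6472 cells were kept, with a median of 8622.5 and 8209.5 UMIs. Paired values here and below are in the order library labelled oil, library labelled tamoxifen, and levels are in CPM, the UMI counts of the cells named scaled to a common total. Ranges in parentheses are 95% intervals that cover counting error only, and with 1 library a group there is no replicate, no test and no p-value. Usp18 was higher in the library labelled tamoxifen (5.62 and 15.4 CPM), the group in which its deletion was intended. Counts of the 3′ end of a transcript need not show the loss of an upstream exon. These counts thus do not show the deletion, and why they were higher was not tested. Every direction here is therefore given by the label of the library. A total of 14 barcodes were shared by both. Progenitor and mast cell markers summed to 1934 and 1830 CPM and erythroid markers to 4735 and 5962 CPM, with none of the 5 genes of either list at 0. Macrophage markers summed to 2.36 and 2.52 CPM, T and NK cell markers to 0.439 and 0.758, B cell markers to 0.212 and 0.214 and neutrophil markers to 0.0151 and 0.0165, with S100a8, Ngp and Ltf at 0 in both. Ribosomal protein genes took 24.4% and 28.1% of UMIs. The erythroid and ribosomal shares thus moved with the groups, and their part in the results below was not tested.

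In all kept cells the replication genes were lower in the library labelled tamoxifen almost without exception. Their UMIs summed to 226920 and 162656, or 3436 and 2681 CPM, a log2 ratio of -0.36 (-0.37 to -0.35). A gene is called lower or higher here where its log2 ratio is at least 0.32 in size. Called lower were 26 of the 39 genes, against 10.7% of the 10527 genes tested, and 0 were called higher, against 6.79%. The median log2 ratio of the 39 was -0.40, where that of all genes was -0.06. The genes ran from Dscc1 at -0.74 to Blm at 0.01. Below the median of all genes lay 38 of the 39 genes, and 38 of the 39 intervals lay below 0. The exception was Blm.

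**Figure D1:**
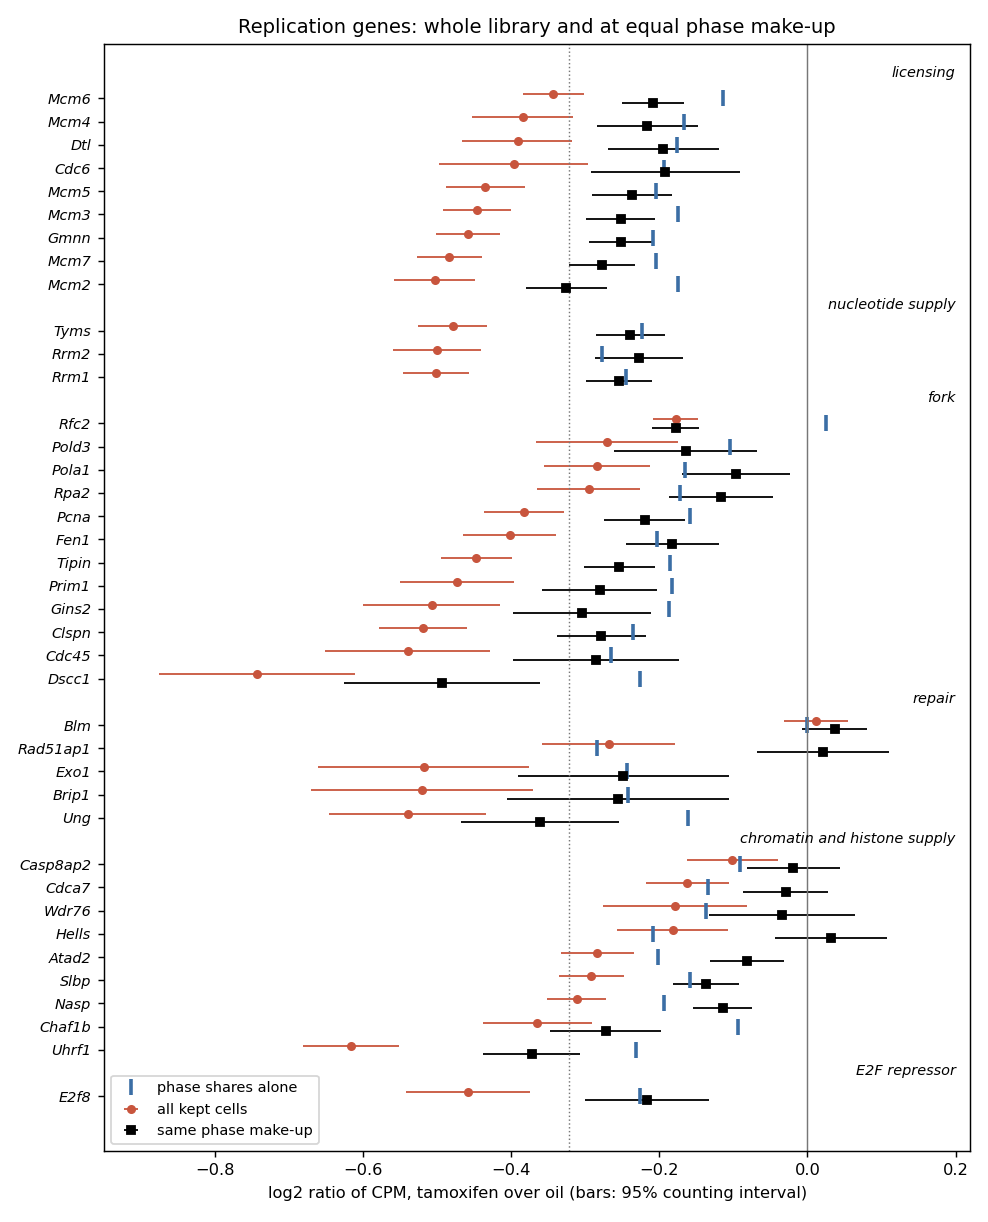
Log2 ratio of CPM, library labelled tamoxifen over library labelled oil, for each of the 39 replication genes by role: all kept cells (circles), the same phase make-up in both libraries (squares), and the ratio that the phase shares alone would give (ticks), with 95% counting intervals and a dotted line at the size from which a gene is called lower. Circles run from -0.74 (Dscc1) to 0.01 (Blm), and squares lie nearer to 0, at a median of -0.22.

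Fewer cells were called S or G2M in the library labelled tamoxifen. The genes that make these calls were themselves lower there in all kept cells, with median log2 ratios of -0.38 for S phase and -0.36 for G2M. Whether fewer cells cycled or these genes were lower in each cell was not tested. Phases were called from genes outside the 39, on cells thinned to 3000 UMIs, and S or G2M cells made up 53.0% (51.8 to 54.3) of 6330 cells and 39.7% (38.5 to 41.0) of 6127 cells. S cells alone were 12.3% and 9.09%, and G2M cells 40.7% and 30.7%. With the S phase list of Seurat, which holds genes of the 39, S cells were 18.2% and 12.3%. The split of S from G2M cells thus depended on the list. The call splits a continuous score, and 13.1% and 14.2% of cells lay within 0.05 of the border of G1. The replication genes followed these calls although they took no part in them. A thinned S cell held on average 16.3 and 14.4 of their UMIs, a G2M cell 11.3 and 9.75, and a G1 cell 4.43 and 3.74.

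To set the shares aside, both libraries were given the phase make-up of the library labelled oil. The 39 genes then had a median log2 ratio of -0.22 against -0.08 for all genes. At this equal make-up 4 of 39 were called lower, against 7.17% of 10496 genes, and 0 higher, against 4.57%, so the share called was near the background. Of the 39 intervals 33 lay below 0, but the median of all genes was itself below 0, and the share of all genes with such intervals was not counted. Below the median of all genes lay 33 of the 39 genes. The count called also depended on the cells kept. Without the 6% of cells with the most UMIs, 12 of 39 were called lower, against 8.56% of 10394 genes, a share above the background. The phase shares alone, with levels per phase held as in the library labelled oil, gave a median of -0.19. The part within phases depended on how finely the cycle was divided: with 25 strata of both phase scores in place of 3 phases, the median was -0.16 against -0.08 for all genes, and that from shares alone was -0.24. With these strata 28 of 39 genes lay below the median of all genes.

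Per cycling cell the difference was small and shared by most of the genes. In S and G2M cells together the summed level was 4279 and 3799 CPM, a log2 ratio of -0.17 (-0.18 to -0.16), and a thinned cycling cell held on average 12.5 and 10.8 UMIs of these genes (57.1 and 51.0 without thinning). Called lower were 2 of 39 genes, Dscc1 and Uhrf1, against 6.08% of 9883 genes, and 0 were called higher, against 4.57%. The median log2 ratio was -0.20 against -0.07 for all genes. Of the intervals, 32 lay below 0 and 1, that of Blm, above it. Below the median of all genes lay 31 of the 39 genes.

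The phases differed in size of difference. The median was -0.31 in G1 cells, -0.16 in S cells and -0.21 in G2M cells, against -0.09, -0.07 and -0.07 for all genes. In G1 cells 18 of 39 genes were called lower, against 12% of 9692 genes, in S cells 7, against 7.73% of 8379 genes, and in G2M cells 4, against 7.21% of 9645 genes, a share near the background. In single S cells thinned to 3000 UMIs, the middle cell held 16 UMIs of the 39 genes in the library labelled oil, with quartiles of 12.75 and 20, and 15 in the library labelled tamoxifen, with quartiles of 10 and 18. The number of these genes seen per S cell was 12 and 11 at the median. In G2M cells the medians were 11 and 9 UMIs and 9 and 7 genes. The cells of both libraries thus overlapped widely.

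**Figure D2:**
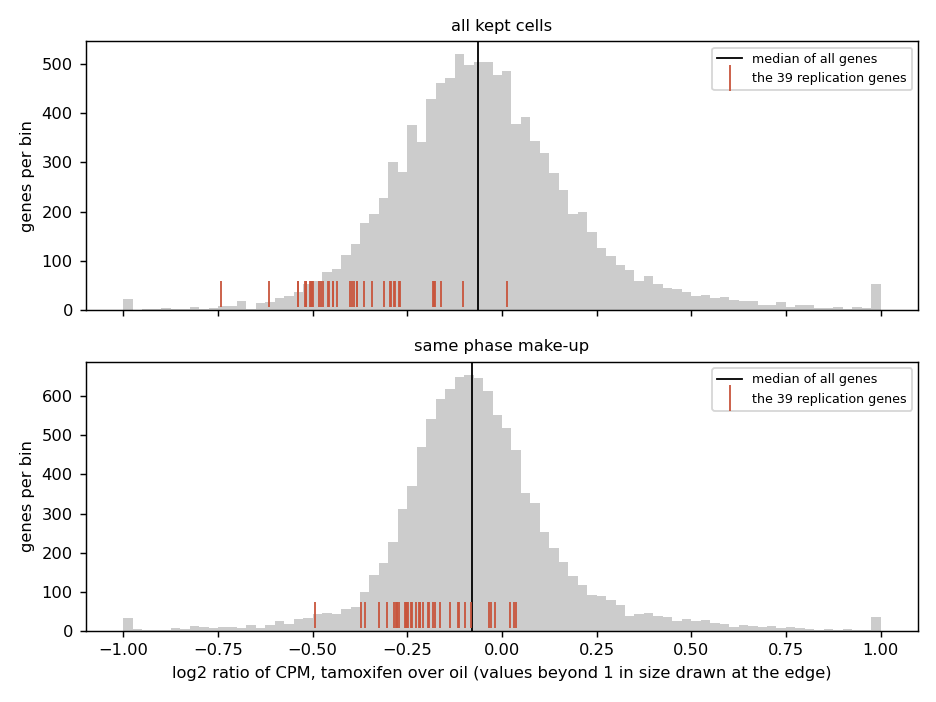
Log2 ratios of CPM, library labelled tamoxifen over library labelled oil, of all genes tested (grey) with the median of all genes (black line) and the 39 replication genes (red marks), in all kept cells above and at the same phase make-up below. The replication genes have a median of -0.40 above and of -0.22 below, left of the medians of all genes at -0.06 and -0.08.

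The 9 origin licensing genes chosen here were lower as a whole group in all kept cells. All 9 were called lower there, between -0.50 and -0.34, against 10.7% of all genes. None was called in S and G2M cells, against 6.08% of all genes. They lay there between -0.30 and -0.14 with every interval below 0. Mcm2, a subunit of the MCM helicase (chromosome 6, 88883474 to 88898780, minus strand, GRCm38 here and below), had the lowest ratio of the group. In all kept cells it had 105 CPM (103 to 108) and 74.2 CPM (72.1 to 76.4), for a ratio of -0.50 (-0.56 to -0.45). In cycling cells it had 134 and 109 CPM, a ratio of -0.30 (-0.36 to -0.24), and at equal phase make-up the ratio was -0.33 (-0.38 to -0.27), so the smaller part of its difference went with the phase shares, which alone gave -0.18. Under a stricter cell filter, which left 554 and 669 cells for phase calls, its ratio in cycling cells was 0.01. Mcm2 was seen in 42.2% (38.7 to 45.7) and 34.6% (30.7 to 38.8) of thinned S cells and in 8.38% and 7.07% of thinned G1 cells.

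Mcm6, another subunit of the helicase (chromosome 1, 128331590 to 128359664, minus strand), had the highest ratio of the group in all kept cells and the longest of the promoter stretches above. It had 174 CPM (171 to 177) and 137 CPM (134 to 140), a ratio of -0.34 (-0.38 to -0.30). In cycling cells it had 206 and 184 CPM, a ratio of -0.16 (-0.21 to -0.11). Its level in G1 cells was 107 and 82.5 CPM, above that of each other MCM gene, and its S over G1 ratio of 1.49 and 1.74 on the log2 scale was the lowest of the group.

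Dtl, part of a ubiquitin ligase that clears the licensing factor Cdt1 in S phase (chromosome 1, 191537356 to 191575544, minus strand), had the highest ratio of the group in cycling cells. It had 54.0 CPM (52.3 to 55.8) and 41.2 CPM (39.6 to 42.8) in all kept cells, a ratio of -0.39 (-0.47 to -0.32), and 69.0 and 62.6 CPM in cycling cells, a ratio of -0.14 (-0.22 to -0.06). In S cells its interval reached 0 (-0.27 to 0.00). The remaining licensing genes, Mcm3, Mcm4, Mcm5, Mcm7, Cdc6 and geminin (Gmnn), which blocks a second licensing, lay between -0.48 and -0.38 in all kept cells. Mcm7 shares exon sequence on its own strand with Mir25 and Mir93.

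All 3 genes of nucleotide supply were 1.39-fold to 1.42-fold lower in all kept cells and had lower values in every phase, where the G1 interval of Rrm2 held 0 (-0.45 to 0.04). Rrm1, the large subunit of ribonucleotide reductase (chromosome 7, 102441695 to 102469771, plus strand), had 156 CPM (153 to 159) and 110 CPM (107 to 113), a ratio of -0.50 (-0.55 to -0.46) and a fold of 1.42. In cycling cells it had 210 and 177 CPM, a ratio of -0.25 (-0.30 to -0.20). Rrm1 was higher in G2M than in S cells in both libraries, with 191 and 165 CPM in S cells and 216 and 180 CPM in G2M cells, unlike most replication genes.

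Rrm2, the small subunit of the same enzyme (chromosome 12, 24708241 to 24714146, plus strand), is the subunit whose supply follows the cell cycle. It had 88.0 CPM (85.7 to 90.2) and 62.2 CPM (60.2 to 64.2), a ratio of -0.50 (-0.56 to -0.44), and phase shares alone gave -0.28, among the lowest values of that kind. In cycling cells it had 123 and 106 CPM, a ratio of -0.22 (-0.28 to -0.16). Of thinned S cells 31.0% and 26.0% held a UMI of Rrm2, and of thinned G1 cells 2.86% and 2.55%.

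Tyms, thymidylate synthase (chromosome 5, 30058202 to 30073617, minus strand), makes the thymidine precursor. It had 141 CPM (138 to 144) and 101 CPM (98.6 to 104), a ratio of -0.48 (-0.53 to -0.43), and 187 and 161 CPM in cycling cells, a ratio of -0.22 (-0.27 to -0.17). A pseudogene, Tyms-ps, could share its reads. In G1 cells Tyms had 42.6 and 30.7 CPM, a ratio of -0.47 (-0.61 to -0.33), about as low as in all kept cells.

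Among the fork genes 8 of 12 were called lower in all kept cells, against 10.7% of all genes, and all 12 intervals lay below 0. Dscc1, a subunit of an alternative clamp loader that acts in sister chromatid cohesion (chromosome 15, 55076099 to 55090491, minus strand), had the lowest ratio of all 39 genes in all kept cells, in cycling cells and at equal phase make-up. Over all kept cells it counted 1310 and 719 UMIs, which gave 19.8 CPM (18.8 to 20.9) and 11.9 CPM (11.0 to 12.8), a ratio of -0.74 (-0.88 to -0.61) and a fold of 1.67. In S cells it had 43.7 and 31.2 CPM, a ratio of -0.49 (-0.72 to -0.26), in G2M cells 22.0 and 16.1 CPM, and in G1 cells 5.27 and 2.83 CPM. The phase shares alone gave -0.23. Dscc1 shares exon sequence with Gm41325 on the other strand.

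Pola1, the catalytic subunit of DNA polymerase alpha, which starts each new strand (chromosome X, 93304767 to 93632155, minus strand), had the highest ratio of the fork genes in cycling cells. It had 55.4 CPM (53.6 to 57.2) and 45.5 CPM (43.8 to 47.2) in all kept cells, a ratio of -0.28 (-0.36 to -0.21), of which phase shares alone gave -0.17. In cycling cells it had 68.9 and 66.1 CPM and the interval of its ratio of -0.06 held 0 (-0.14 to 0.02), with a sign that turned to 0.01 under TMM scaling. In S cells it had 76.0 and 75.6 CPM. Its octamer, printed above, is on the strand opposite to the gene.

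Rfc2, a clamp loader subunit (chromosome 5, 134581366 to 134601805, plus strand), had the highest ratio of the fork genes in all kept cells and the highest level of all 39 genes. It had 291 CPM (287 to 295) and 257 CPM (253 to 261), a ratio of -0.18 (-0.21 to -0.15). Its level hardly followed the cycle, with 311 and 259 CPM in G1 cells, 318 and 290 CPM in S cells and 267 and 243 CPM in G2M cells, and phase shares alone gave 0.02. Rfc2 overlaps exons of Lat2 on the other strand. Lat2 itself was counted with 1385 and 1184 UMIs, where Rfc2 had 19221 and 15608.

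The other fork genes lay between -0.54 and -0.27 in all kept cells. They were the helicase factors Cdc45 and Gins2, the primase subunit Prim1, the polymerase delta subunit Pold3, the clamp Pcna, the single strand binding subunit Rpa2, the flap nuclease Fen1, and the fork protection genes Tipin and Clspn. In S cells Rpa2, like Pola1, was nearly level, with 105 and 104 CPM and a ratio of -0.02 (-0.16 to 0.12), and it is named here after its values were seen. Pold3 turned from -0.27 to 0.08 in all kept cells under the stricter cell filter. Pseudogenes Pcna-ps1 and Pcna-ps2 could share reads of Pcna.

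The 5 repair genes were split. Ung, which removes uracil from DNA (chromosome 5, 114130386 to 114139323, plus strand), had the lowest ratio of the group, with 28.1 CPM (26.9 to 29.4) and 19.4 CPM (18.3 to 20.5), a ratio of -0.54 (-0.65 to -0.43). It marked early S phase most sharply of all the genes named by rule, with an S over G2M ratio of 1.96 and 2.27 on the log2 scale. In S cells it had 86.0 and 75.7 CPM, a ratio of -0.18 (-0.34 to -0.03), and in G2M cells 22.1 and 15.7 CPM, a ratio of -0.50 (-0.67 to -0.32). In all cycling cells its ratio was -0.29 (-0.40 to -0.17), and 0.05 under the stricter cell filter. Ung was seen in 22.3% and 17.8% of thinned S cells and in 2.46% and 1.22% of thinned G1 cells.

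Blm, a helicase that takes apart recombination intermediates (chromosome 7, 80454733 to 80535119, minus strand), was level between the libraries. It had 137 CPM (134 to 140) and 138 CPM (135 to 141), a ratio of 0.01 (-0.03 to 0.06) that fell to -0.01 over all barcodes. Its level in G1 cells was 137 and 132 CPM, in S cells 121 and 122 CPM and in G2M cells 140 and 149 CPM. In cycling cells its ratio was 0.07 (0.02 to 0.13), the single interval above 0. Blm and Rfc2 had the smallest S over G1 ratios of the 39 genes, -0.18 and -0.12 for Blm and 0.03 and 0.17 for Rfc2 on the log2 scale.

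Exo1 and Brip1, a nuclease and a helicase, were at -0.52 each in all kept cells, with 15.6 and 10.9 CPM for Exo1 and 14.1 and 9.84 CPM for Brip1. Rad51ap1 differs from them and is named here after its values were seen. Its S over G1 ratio was 3.72 and 3.93 on the log2 scale, the highest of the 39 genes in the library labelled oil. In all kept cells its ratio was -0.27 (-0.36 to -0.18), and phase shares alone gave -0.28. At equal phase make-up its ratio was 0.02 (-0.07 to 0.11), with a sign that turned without the 6% of cells with the most UMIs.

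Chromatin and histone supply genes were lower by less than the other roles, with a median of -0.28 in all kept cells and of -0.07 in cycling cells, the value of all genes. Of 9 genes, 2 were called lower in all kept cells, against 10.7% of all genes. They were Uhrf1 and Chaf1b, a subunit of the assembly factor that places histones on new DNA. Uhrf1, which brings the maintenance DNA methyltransferase to copied DNA (chromosome 17, 56303321 to 56323486, plus strand), had 77.7 CPM (75.6 to 79.8) and 50.7 CPM (48.9 to 52.5), a ratio of -0.62 (-0.68 to -0.55) and a fold of 1.53. In S cells it had 170 and 132 CPM, in G2M cells 87.2 and 68.5 CPM and in G1 cells 19.4 and 12.5 CPM. Its ratios in S and G2M cells were alike, at -0.36 (-0.48 to -0.25) and -0.35 (-0.43 to -0.26).

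Hells, a chromatin remodeler that works with Cdca7 in DNA methylation (chromosome 19, 38930915 to 38971051, plus strand), had the highest ratio of its group in cycling cells. It had 48.5 CPM (46.9 to 50.2) and 42.8 CPM (41.1 to 44.5) in all kept cells, a ratio of -0.18 (-0.26 to -0.11), and 64.4 and 67.5 CPM in cycling cells, a ratio of 0.07 (-0.01 to 0.15) that turned to -0.01 both without the 6% of cells with the most UMIs and where cycling was read from Mki67 or Top2a. In S cells alone it was higher in the library labelled tamoxifen, with 107 and 121 CPM and a ratio of 0.17 (0.04 to 0.30), the only interval above 0 there. Uhrf1 and Hells thus went opposite ways in the same S cells.

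Casp8ap2, a factor in the processing of histone transcripts (chromosome 4, 32615451 to 32653265, plus strand), had the highest ratio of the group in all kept cells. It had 70.1 CPM (68.1 to 72.2) and 65.3 CPM (63.3 to 67.4), a ratio of -0.10 (-0.16 to -0.04), and phase shares alone gave -0.09. In S cells it had 104 CPM in both libraries, and in cycling cells the ratio was -0.03 (-0.10 to 0.05), which turned to 0.05 under TMM scaling. Atad2, Cdca7 and Wdr76 lay between -0.07 and 0.00 in cycling cells, with signs that depended on the scaling or the set of cells, and the histone chaperone Nasp and the histone transcript binder Slbp were at -0.10 and -0.13. A pseudogene, Nasp-ps1, could share reads of Nasp.

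E2f8, a repressor that E2F factors switch on and that then limits their targets (chromosome 7, 48866429 to 48881596, minus strand), was lower too. It had 44.2 CPM (42.6 to 45.8) and 32.2 CPM (30.8 to 33.6), a ratio of -0.46 (-0.54 to -0.38). In S cells it had 64.2 and 47.9 CPM, a ratio of -0.42 (-0.61 to -0.23), and in G2M cells 57.0 and 51.6 CPM, a ratio of -0.14 (-0.25 to -0.04). E2f8 shares exon sequence with Gm2788 on the other strand.

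**Figure D3:**
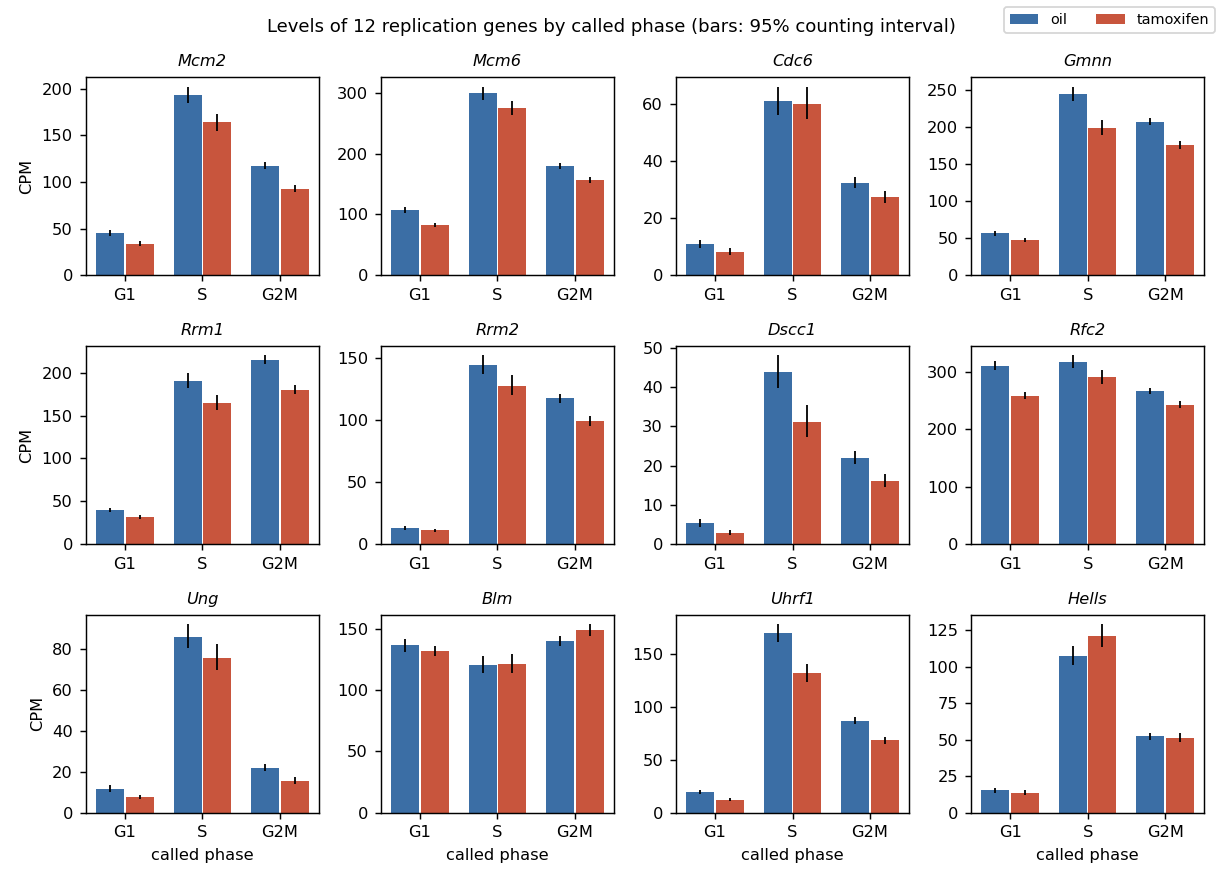
CPM of 12 replication genes in cells called G1, S or G2M, in the library labelled oil (blue) and the library labelled tamoxifen (red), with 95% counting intervals. Mcm2, Uhrf1 and Dscc1 are lower in each phase in the library labelled tamoxifen, Rfc2 and Blm hardly follow the cycle, and Hells is higher in S cells (107 and 121 CPM).

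The order of the genes along the cycle was kept between the libraries. Over the 39 genes the S over G1 ratios of both libraries had a Pearson r of 0.984 and a Spearman rho of 0.964, a description over genes that share libraries and cells. In thinned S cells of the library labelled oil the genes were seen in 6.79% (Brip1) to 59.9% (Rfc2) of cells, with a median gene at 30.3%, and in the library labelled tamoxifen in 5.21% (Brip1) to 58.2% (Rfc2), with a median gene at 27.5%. In G1 cells the median gene was seen in 6.36% and 5.66% of cells. G1 and S cells had a median of 6222 and 12603.5 UMIs before thinning in the library labelled oil and of 6543 and 13203 in the library labelled tamoxifen. A single gate was sorted and no cell types were told apart in it, so the share that free RNA alone would give was not read from another cell type.

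Cycling cells were also put in 5 bins by the difference of G2M and S score, from bin 1, where the S score was highest over the G2M score, to bin 5. Each bin held 19.5% to 20.7% of the cycling cells of either library. Most of the genes were highest early: 29 of 39 peaked in bin 1 in both libraries. Blm peaked in bin 5 in both, and Rrm1 in bin 4 and bin 5. The median log2 ratio of the 39 genes was -0.17 in bin 1, -0.21 in bin 2, -0.26 in bin 3, -0.21 in bin 4 and -0.10 in bin 5, where that of all genes was between -0.09 and -0.07. The replication genes were thus lowest against all genes in the middle bin and close to all genes in the last. Where cells lay within a bin was not compared.

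Ung, Dtl and Rrm2 had their lowest ratio in bin 3, and were picked from the genes named by rule after their bins were seen. Uhrf1, Casp8ap2 and Blm were also lowest in bin 3. Others were not: Mcm2, Rrm1, Dscc1, Pola1, Rfc2 and Hells were lowest in bin 4, Mcm6 in bin 5, Tyms in bin 2 and E2f8 in bin 1. Ung had 88.9 and 76.9 CPM in bin 1, 31.8 and 17.6 CPM in bin 3, a ratio of -0.85 (-1.20 to -0.52), and 1.20 and 1.23 CPM in bin 5. In bin 4 its ratio was -0.68 (-1.28 to -0.10). Dtl had 70.6 and 50.3 CPM in bin 3, a ratio of -0.49 (-0.69 to -0.28), and 44.0 and 46.4 CPM in bin 4, a ratio of 0.08 (-0.14 to 0.29). Rrm2 had 132 and 97.0 CPM in bin 3, a ratio of -0.44 (-0.59 to -0.29), and 72.3 and 84.3 CPM in bin 5, a ratio of 0.22 (0.06 to 0.38). In bin 4 its ratio was close to that in bin 3, at -0.42 (-0.56 to -0.28). Mcm2 and Dscc1 were lower in the library labelled tamoxifen in each bin, between -0.47 and -0.24 for Mcm2 and between -0.69 and -0.28 for Dscc1. Hells was higher in bins 1 and 2, at 0.17 and 0.18, and lower in bins 3 and 4, at -0.21 each.

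**Figure D4:**
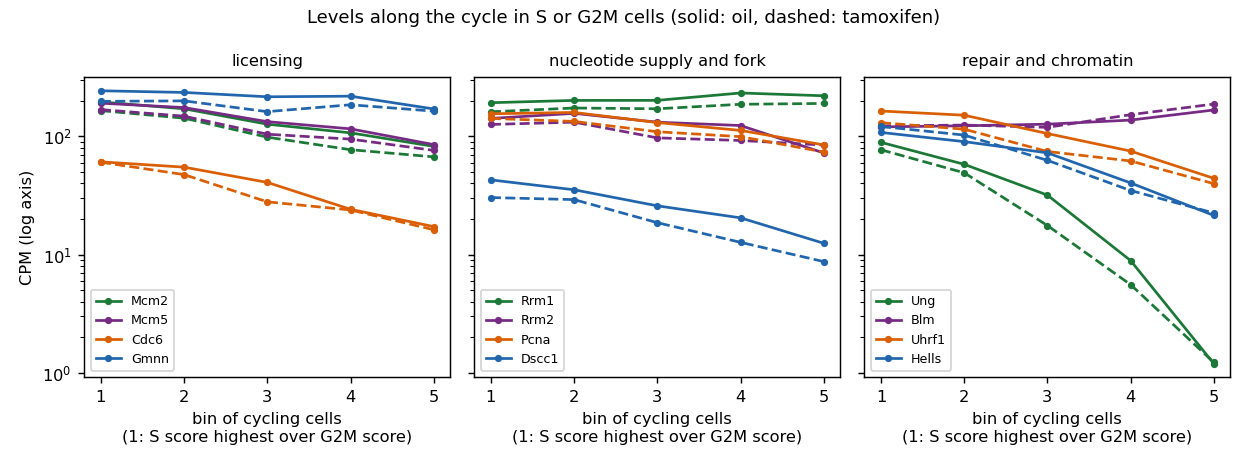
CPM on a log axis along 5 bins of S or G2M cells for 12 replication genes, library labelled oil (solid) and library labelled tamoxifen (dashed). Most lines fall from bin 1 to bin 5, Ung from 88.9 to 1.20 CPM in the library labelled oil, whereas Blm rises from 120 to 167 CPM.

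Other genes of DNA replication, 48 in all, were read in the same way. In all kept cells 17 of them were called lower, against 10.7% of all genes, and 0 higher, with a median of -0.27. In cycling cells 3 were called lower, the background share of 6.08% of all genes, with a median of -0.11, and at equal phase make-up the median was -0.12. The lowest were Orc1, the largest subunit of the origin recognition complex, at -0.71 (-0.93 to -0.50), with 7.71 and 4.70 CPM, and Cdc7, the kinase that fires licensed origins, at -0.55 (-0.70 to -0.41), with 15.1 and 10.3 CPM. The highest were Pold4, a small subunit of DNA polymerase delta, at 0.10 (0.04 to 0.17), and Orc5, another subunit of the origin recognition complex, at 0.06 (-0.06 to 0.18). Of the 48 genes, 13 belong to origins and licensing, and 2 of these 13 were called lower in all kept cells, with a median of -0.21. All 9 licensing genes described above were called lower there. The genes that called the phases were lower too in all kept cells, with medians of -0.38 for S phase and -0.36 for G2M. Called lower were 20 of 29 for S phase and 32 of 54 for G2M, against 10.7% of all genes, and 1 for G2M was higher.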

How the data were processed

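Single-cell transcriptomes of 2 libraries, 1 per group, were used. The authors deposited UMI counts per gene and cell, made from Chromium V3 reads, and the submitters' processing notes name Cell Ranger (3.0.2 in the file headers), mm10 and Seurat. Barcodes with under 500 genes or over 10% mitochondrial UMIs were dropped, which left out 936 of 7774 and 839 of 7311. Doublets were not removed.

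Counts were summed per library or phase and scaled to CPM with exact Poisson intervals. Log2 ratios have exact conditional binomial intervals, ratios at equal phase make-up a normal interval from Poisson variances, and shares exact Clopper-Pearson intervals, all at 95%. Genes with at least 100 UMIs over both libraries in the cells compared were compared, and a log2 ratio of at least 0.32 in size is called. Phases were scored with scanpy, with 29 S and 54 G2M genes and 50 control genes, none a replication gene described here, on cells thinned to 3000 UMIs. This left out 508 and 345 shallower cells. The steps were tested on simulated data.

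In each role, the genes with the highest and lowest ratio in all kept and in cycling cells are named, all genes of roles of 3 or fewer, 2 highest and 2 lowest of the other replication genes, and Usp18. The genes and lists were chosen with earlier results of these data known. Positions are from GENCODE M21, which holds all 39 genes. Of these, 8 share exon sequence with a gene on the other strand.

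Alternatives were other cell filters, scalings, weights, minimums, folds, phase lists, thinning depths and strata. Scaling factors came from edgeR 4.0.16 and DESeq2 1.42.0 in R 4.3.3, and all else from Python 3.11.15 with scanpy 1.11.5, pandas 2.3.3, scipy 1.17.1, numpy 2.4.6 and matplotlib 3.10.9.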

Additional observations from a re-analysis of the deposited data

Results flagged for a closer look

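Barcodes left out by the cell filter, 936 of the library labelled oil and 839 of that labelled tamoxifen, also held replication transcripts, and were used in the report only where a ratio over all barcodes is given. The 39 genes had 9354 and 7428 UMIs in them, or 2230 and 1701 CPM, a log2 ratio of -0.391 (-0.435 to -0.347). Of the 39 genes 34 had at least 100 UMIs over both libraries there, and 20 of these were called lower in the library labelled tamoxifen, against 20.9% of 7198 genes, and 1 was called higher, against 5.21%. Their median was -0.40, against -0.13 for all genes. What these barcodes hold was not tested.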

How the results depend on the processing

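No paired analysis was possible because neither group holds more than a single library. All medians of the 39 genes kept their sign under each alternative run, but their distance from the median of all genes changed. In cycling cells the median was -0.14 against -0.09 for all genes under the stricter cell filter. There 24 of 38 genes lay below the median of all genes, against 31 of 39 in the main run. Without the 6% of cells with the most UMIs the cycling-cell median was -0.27 against -0.08 for all genes. In all kept cells the median moved to -0.34 with TMM, -0.34 with median-ratio scaling and -0.32 with mitochondrial and ribosomal protein genes left out of the total. It was -0.51 without the 6% of cells with the most UMIs and -0.49 with every cell given the same weight. At 1.5-fold 2 genes were called lower, against 1.27% of all genes. TMM and median-ratio scaling shift all ratios alike, by 0.06 to 0.07. In cycling cells the number called lower is given with the share of all genes in parentheses. It became 1 with TMM (3.22%), 1 with median-ratio scaling (3.24%) and 1 with the total without mitochondrial and ribosomal protein genes (3.30%). The S phase list of Seurat gave 1 (5.94%), equal weights gave 4 (7.47%) and a fold of 1.5 gave 0 (1.04%). A stricter cell filter (1000 genes or more, mitochondrial share up to 5%) gave 4 (14.3%). Without the 6% of cells with the most UMIs it was 11 of 39 (8.0%), well above the share of all genes. At equal phase make-up the number became 1 with TMM (4.46%), 1 with median-ratio scaling (4.5%) and 1 with that smaller total (4.02%), where the median was -0.15. The S phase list of Seurat gave 1 (6.93%), 25 strata gave 1 (7.28%) and the stricter cell filter gave 7 (13.7%). Without the 6% of cells with the most UMIs it was 12 of 39 (8.56%), again well above the share of all genes. Under the stricter filter 3 of 38 genes were also called higher in cycling cells and 1 at equal phase make-up, and of all genes 14.3% and 13.7% were called lower there and 5.93% and 5.78% higher. Without thinning, the median share of S cells with a UMI was 71.5% and 69.5%. Of 1323 values of single genes 945 moved by less than their counting interval and 378 by more. The 945 include all values under other UMI minimums and another fold, which leave a ratio unchanged and so could not move. The causes were not tested. The stricter filter left 554 and 669 cells for phase calls, and ratios in them are the least precise. Differences between single mice cannot be seen in pooled libraries.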
